A study of Homo sapiens with 8 samples.

Results

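The genes described here carry out N-glycosylation and the first trimming of N-glycans. A fixed list of 47 genes was used, and the 89 probe sets that the platform annotation tied to one of them alone were taken, out of 41091 probe sets tied to a single gene. These probe sets measured 43 of the 47 genes, out of 19775 genes in all. PMM2, GMPPB, SRD5A3 and ALG11 had no such probe set and were not analysed here. MAN1A1 lay below the filter on dim probe sets, which left 42 genes for the tests per gene.

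The arrays came from A549 cells, an established human lung adenocarcinoma line, transfected with small interfering RNA (siRNA) through the lipid reagent DharmaFECT 1. The 4 conditions, with 2 arrays each, paired SRC-1 siRNA or control siRNA with medium that held glucose or lacked it. SRC-1 is steroid receptor coactivator 1, the product of NCOA1, and the series asks how its loss alters expression in either medium. All 8 cultures were transfected and held for 36 h in 10% dialyzed fetal calf serum, which lacks most small molecules, and then received DMEM that contained glucose or lacked it, in dialyzed serum. The sources used here do not give the time in the last medium, and no untransfected culture was included. Values are the deposited log2 signals, and a difference of 1 is a doubling. The labels speak of biological replicates but do not say how the cultures were kept apart, so that p-values cover array-to-array spread only, which may be technical.

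N-glycosylation builds an oligosaccharide on the lipid carrier dolichol at the membrane of the endoplasmic reticulum (ER) and then moves it as a block to asparagines of entering proteins. The oligosaccharide is assembled from UDP-GlcNAc, GDP-mannose and dolichol-bound mannose and glucose, so that glucose is a source of its sugars. After the transfer, glucosidases and mannosidases trim the glycan, and chaperones that bind the trimmed forms follow the folding of the protein. Lack of glucose or of glycosylation is a classic trigger of the unfolded protein response, in which the factors ATF6, XBP1 and ATF4 raise genes of the ER.

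All arrays lay on a common scale, with medians between 4.97 and 5.01, and replicate arrays correlated at 0.997 to 0.998. NCOA1 read 5.47 and 5.18 under SRC-1 siRNA, against 8.60 and 8.42 under control siRNA, in glucose, and 5.22 and 5.09 against 8.34 and 8.24 without glucose. The knockdown arrays lay below the control arrays in both media. Of 9 markers of lung epithelial lines 8 passed the filter, and KRT8, KRT18, KRT7, NQO1, AKR1B10 and ALDH1A1 each stood at or above the 99.5th percentile of probe sets. CDH1 stood at percentile 90.3 and MUC1 at 61.7. Of these 8 markers, 3 were higher and 1 was lower with glucose, averaged over both siRNAs, where 29.5% and 26.2% of all genes were. Of 7 alveolar type II markers 5 passed, at percentiles of 40.5 to 74.3, and with glucose, averaged over both siRNAs, LAMP3 (-2.67) and SFTPC (-0.21) were lower and SFTPB (0.21) was higher. Of the haematopoietic, endothelial and fibroblast markers 2 of 5, 2 of 4 and 3 of 5 passed, and 0 of their genes were called for the glucose effect averaged over both siRNAs by limma, at unadjusted p-values of 0.0508 and above. The log2 distance between 3' and 5' probe sets of beta-actin was 0.513 to 0.643 on the glucose arrays and 0.414 to 0.535 on the arrays without glucose. The same distance for GAPDH was 0.139 to 0.172 with glucose and 0.123 to 0.141 without. These ranges, pooled over the siRNAs, overlapped for both transcripts. Within each siRNA, both GAPDH values with glucose lay above both without. They were 0.154 and 0.139 against 0.126 and 0.131 with SRC-1 siRNA, and 0.163 and 0.172 against 0.123 and 0.141 with control siRNA. Beta-actin did the same with control siRNA (0.643 and 0.521 against 0.414 and 0.52) and overlapped with SRC-1 siRNA. The part of RNA quality and of the moving markers in the results was not tested.

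Of the 42 tested genes of N-glycosylation, 18 were lower with glucose than without it under both siRNAs, 4 were higher under both, 4 were called under a single siRNA and 16 under neither. The 4 higher genes include MAN1A2, whose direction depended on the probe set. With SRC-1 siRNA, 18 were lower and 5 higher with glucose, where 20.0% of all genes were lower, 24.6% higher and 44.7% either. With control siRNA, 21 were lower and 4 higher, where 21.6% of all genes were lower, 23.6% higher and 45.2% either. A gene was called where its p from limma, adjusted over 13584 genes by the method of Benjamini and Hochberg, was under 0.05. The median difference of the 42 genes was -0.18 with SRC-1 siRNA and -0.21 with control siRNA, beside 0.01 and 0.00 for all genes tested. No array is shared by these comparisons, and 0 genes were called in opposite directions. All arrays entered the same limma fit, however, so that both comparisons use the same estimate of each gene's spread. Their calls are therefore not independent of each other. The number higher with SRC-1 siRNA was 2 without SRC-1 siRNA glucose array 1 and 3 without its no glucose array 2. Among all genes, 17.4% were lower with both siRNAs and 20.6% were higher with both. For 23 of the 42 genes, all 4 glucose arrays lay below all 4 arrays without glucose, and for 6 genes they lay above, against 25.3% and 28.6% of all genes. The arrays measure RNA pooled from a culture, in which fewer cells of a kind and less RNA per cell cannot be told apart.

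**Figure D1:**
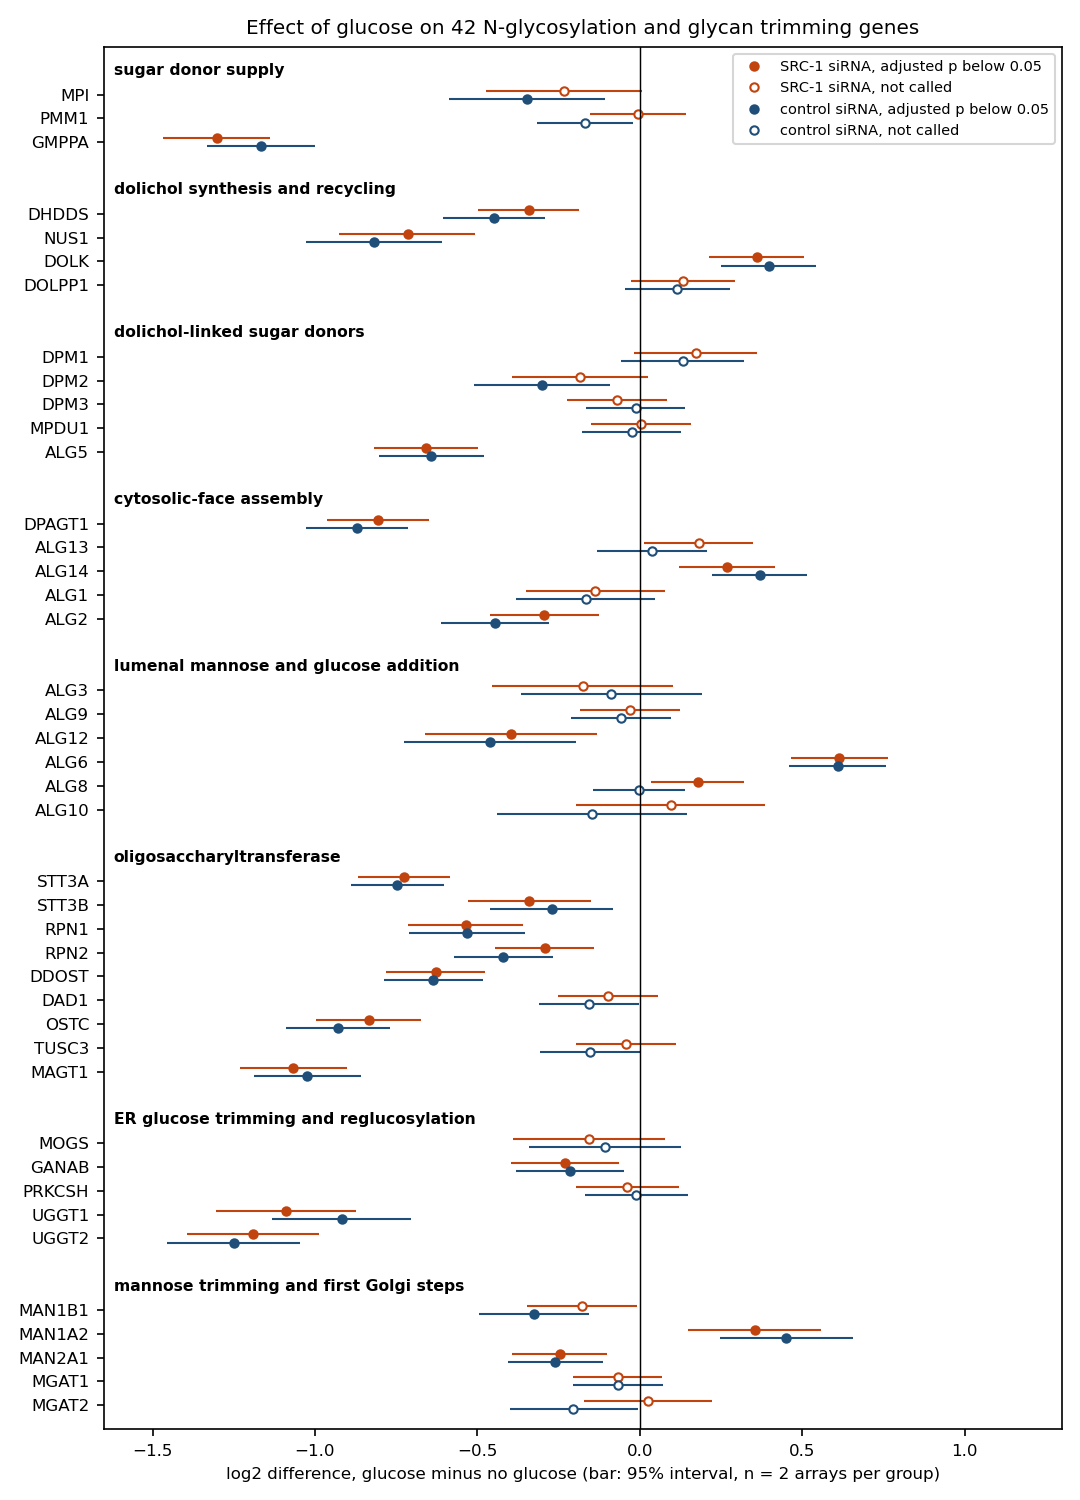
Difference in log2 signal between glucose and no glucose (horizontal axis) for the 42 tested genes, grouped by step of the pathway, with SRC-1 siRNA (orange) and control siRNA (blue). Bars are 95% intervals (2 arrays per group), filled points are called, and the most negative values belong to GMPPA, UGGT2, UGGT1 and MAGT1, while ALG6 has the most positive.

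**Figure D2:**
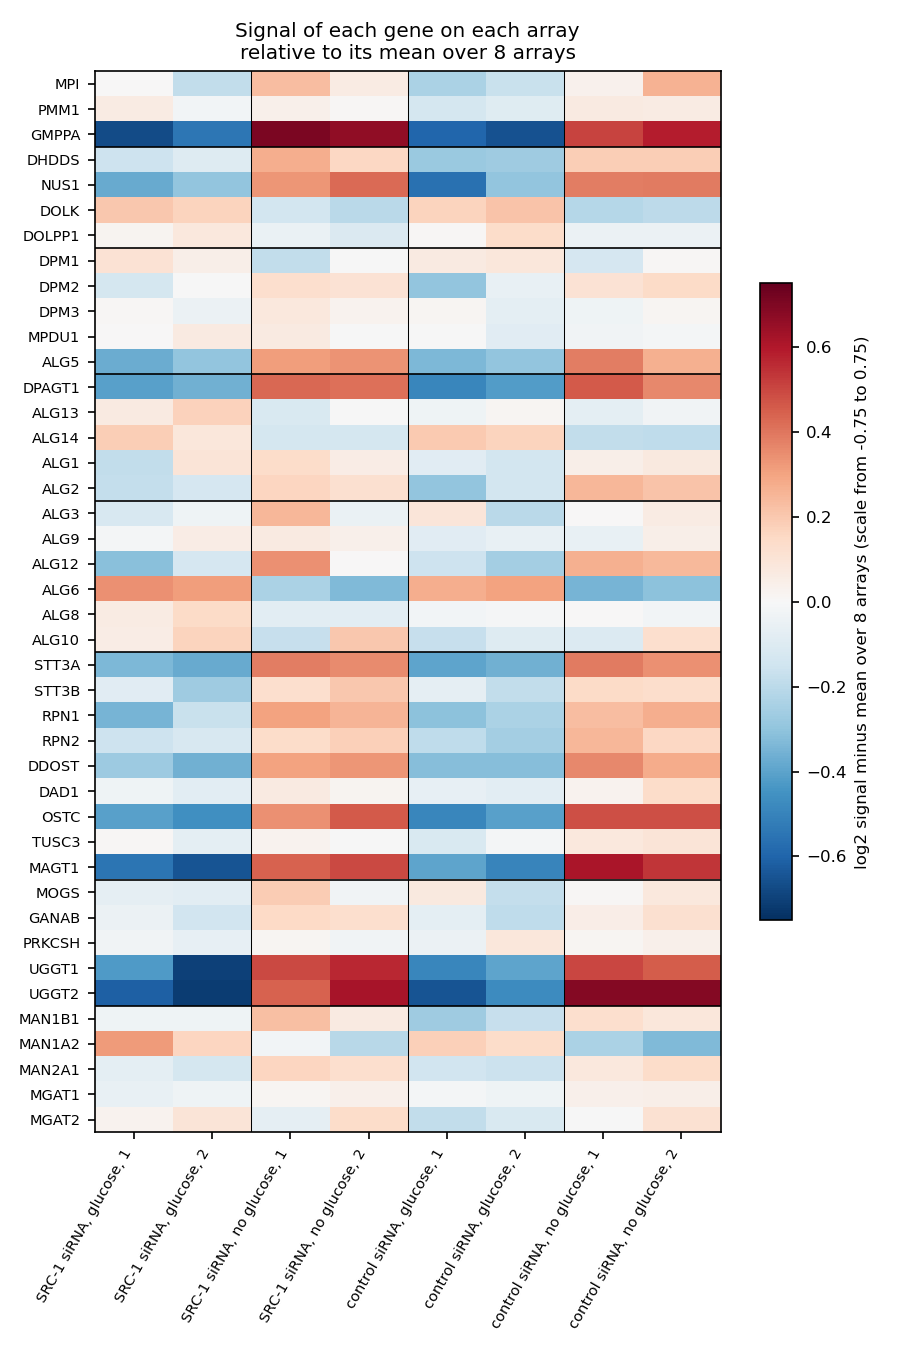
Log2 signal of each tested gene on each of the 8 arrays (columns, 2 per group) minus its mean over the arrays, with lines between the steps of the pathway. The columns without glucose are red where a gene was lower with glucose, as for GMPPA, OSTC, MAGT1, UGGT1 and UGGT2, and blue for ALG6, DOLK and ALG14.

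The promoters of these genes were read because many of the genes moved together and the unfolded protein response acts through known DNA elements. RefSeq (GRCh38.p14) gave a window of 250 bases before to 50 after the gene start for 41 of the 47 genes, and none for ALG10, STT3B, RPN1, TUSC3, MOGS and MAN1A2. The ER stress response element ERSE, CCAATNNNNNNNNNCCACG, was searched on both strands and found in the window of ALG12 alone among the 41, and in 22 of 27305 windows of all genes (0.0806%). Those 22 included the windows of HSPA5, HSP90B1, CALR, CANX and XBP1, and that of CRELD2, which overlaps the window of ALG12. They also included windows of genes on none of the lists used here, among them FRG2, GLRA2, NLRP4 and TRIM5. The ERSE-II element, ATTGGNCCACG, occurred in 0 of the 41 windows and in 0.0549% of all. The core ACGTGG of elements bound by XBP1 and ATF6, whose reverse complement overlaps the CCACG of the ERSE, occurred in 10 of the 41 windows and in 9.91% of all. It lay in 5 of 16 windows of genes lower with both siRNAs (DHDDS, NUS1, OSTC, GANAB and UGGT2), in 1 of 3 of genes higher with both (DOLK), in 0 of 4 called with a single siRNA, and in 2 of 13 called with neither (DPM3 and MPDU1). The other 2 windows were those of GMPPB and SRD5A3. The longer TGACGTGG, which contains the core, was found in DHDDS alone and in 0.795% of all windows. The windows below were picked from those that hold a match, and are those of ALG12, of 4 other genes that fell and of DOLK, which rose. The windows of GANAB, which fell, and of DPM3, MPDU1, GMPPB and SRD5A3 also hold the core and are not shown. Windows without a match are not shown, among them those of GMPPA, MAGT1 and UGGT1, which fell, and of ALG6, which rose. Capitals mark the fixed bases of the ERSE in ALG12 and the core on either strand in the others.
ALG12 promoter, chr22:49918389-49918688, minus strand: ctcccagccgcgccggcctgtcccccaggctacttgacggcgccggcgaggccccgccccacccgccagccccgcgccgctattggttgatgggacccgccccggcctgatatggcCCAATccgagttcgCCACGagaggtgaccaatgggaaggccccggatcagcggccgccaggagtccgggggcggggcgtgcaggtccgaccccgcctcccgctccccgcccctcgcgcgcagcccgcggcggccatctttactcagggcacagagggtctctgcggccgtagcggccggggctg
DHDDS promoter, chr1:26432071-26432370, plus strand: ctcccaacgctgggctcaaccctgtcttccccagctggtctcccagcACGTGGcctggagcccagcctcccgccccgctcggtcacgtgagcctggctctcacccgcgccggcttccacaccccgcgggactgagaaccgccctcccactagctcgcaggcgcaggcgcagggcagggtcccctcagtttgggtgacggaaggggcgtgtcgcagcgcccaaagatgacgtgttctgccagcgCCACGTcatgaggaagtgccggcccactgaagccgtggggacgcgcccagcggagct
NUS1 promoter, chr6:117675219-117675518, plus strand: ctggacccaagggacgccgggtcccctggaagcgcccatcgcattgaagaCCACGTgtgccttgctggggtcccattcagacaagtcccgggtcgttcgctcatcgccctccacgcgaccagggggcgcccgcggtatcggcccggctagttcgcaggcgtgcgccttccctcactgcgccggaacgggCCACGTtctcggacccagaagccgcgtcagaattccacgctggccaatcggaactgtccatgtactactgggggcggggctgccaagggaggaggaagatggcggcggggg
OSTC promoter, chr4:108650349-108650648, plus strand: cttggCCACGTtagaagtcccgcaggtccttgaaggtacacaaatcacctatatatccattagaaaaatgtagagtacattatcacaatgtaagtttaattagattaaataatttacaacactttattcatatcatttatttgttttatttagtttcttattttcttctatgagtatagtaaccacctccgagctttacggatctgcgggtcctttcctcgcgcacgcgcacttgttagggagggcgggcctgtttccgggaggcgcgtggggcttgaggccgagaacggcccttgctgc
UGGT2 promoter, chr13:96053352-96053651, minus strand: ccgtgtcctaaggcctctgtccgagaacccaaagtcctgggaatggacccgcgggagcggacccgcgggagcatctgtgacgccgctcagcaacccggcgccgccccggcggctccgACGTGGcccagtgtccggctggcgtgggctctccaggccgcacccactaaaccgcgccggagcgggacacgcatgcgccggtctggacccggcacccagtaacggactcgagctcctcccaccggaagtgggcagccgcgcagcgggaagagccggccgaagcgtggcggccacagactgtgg
DOLK promoter, chr9:128947554-128947853, minus strand: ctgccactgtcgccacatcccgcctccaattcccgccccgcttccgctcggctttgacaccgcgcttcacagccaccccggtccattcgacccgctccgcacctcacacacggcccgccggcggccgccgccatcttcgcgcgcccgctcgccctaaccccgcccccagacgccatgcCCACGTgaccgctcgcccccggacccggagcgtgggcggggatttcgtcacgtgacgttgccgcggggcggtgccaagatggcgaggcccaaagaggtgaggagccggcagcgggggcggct
In ALG12 the element spans positions -134 to -116, counted from 0 at the first base of the gene, and in DHDDS the core within the longer form spans -7 to -2. A match describes the letters of the window and was not tested for binding.

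Sugar donors were measured through 3 genes, of which GMPPA stood out. GMPPA encodes the non-catalytic partner of the enzyme that makes GDP-mannose. It read 7.41 and 7.54 with glucose against 8.79 and 8.75 without under SRC-1 siRNA, and 7.49 and 7.43 against 8.59 and 8.67 under control siRNA. The 4 glucose arrays lay more than a whole log2 unit below the other 4. Its difference was -1.30 ± 0.072 (SE, n = 2 per group) with SRC-1 siRNA, a 2.47-fold lower signal (adjusted p = 5.17e-06, limma), and -1.17 ± 0.072 with control siRNA (2.24-fold, adjusted p = 8.62e-06). MPI, which makes mannose 6-phosphate from a glycolytic sugar phosphate, differed by -0.23 ± 0.10 and was not called with SRC-1 siRNA, and fell by 0.35 with control siRNA (adjusted p = 0.0253), a call that ended without control siRNA no glucose array 2 (adjusted p = 0.164), glucose array 1 (0.110) or glucose array 2 (0.0554). Its other probe set, almost as bright, was called with both siRNAs at -0.96 ± 0.10 and -0.90 ± 0.10. The phosphomannomutase PMM1 was at -0.01 and -0.17 and was called with neither siRNA.

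Dolichol genes moved both ways. NUS1 and DHDDS, the subunits of the prenyltransferase that extends the dolichol chain, were lower with glucose. NUS1 read 9.71 and 9.79 against 10.42 and 10.51 under SRC-1 siRNA, and 9.53 and 9.79 against 10.47 and 10.48 under control siRNA, a difference of -0.72 ± 0.091 and -0.82 ± 0.091. DHDDS differed by -0.34 ± 0.068 and -0.45 ± 0.068, and its other probe set by -0.79 and -0.90. A dimmer probe set of NUS1 gave -0.10, not called, with SRC-1 siRNA and -0.27, called, with control siRNA. DOLK, the kinase that makes dolichol phosphate, went the other way and read 8.68 and 8.64 with glucose against 8.34 and 8.27 without under SRC-1 siRNA. Under control siRNA it read 8.64 and 8.69 against 8.26 and 8.28, and the rises were 0.36 ± 0.064 and 0.40 ± 0.064 (adjusted p = 0.00202 and 0.00118). DOLPP1, a phosphatase that returns the used carrier, was at 0.13 and 0.12 and was called with neither siRNA, although its 4 glucose arrays lay above the others.

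Among the genes for dolichol-bound sugars, ALG5, which makes dolichol phosphate glucose, was the clear mover. It read 11.05 and 11.13 with glucose against 11.74 and 11.76 without under SRC-1 siRNA, and 11.09 and 11.13 against 11.81 and 11.69 under control siRNA. Its differences were -0.66 ± 0.070 and -0.64 ± 0.070 (adjusted p = 0.000135 and 0.000156). The dolichol phosphate mannose synthase has a catalytic subunit, DPM1, which was at 0.17 and 0.13 and not called, and small partners DPM2 and DPM3. DPM2 was called lower with control siRNA alone (-0.30 ± 0.092, adjusted p = 0.0261), at -0.18 with SRC-1 siRNA, and lost the call without control siRNA glucose array 1 (adjusted p = 0.156), no glucose array 1 (0.0740) or no glucose array 2 (0.111). DPM3 (-0.07 and -0.01) and MPDU1 (0.00 and -0.03), needed for the use of both dolichol-bound sugars, were not called.

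On the cytosolic face of the ER membrane, DPAGT1 takes the first step and is the target of the glycosylation inhibitor tunicamycin. DPAGT1 read 8.63 and 8.68 with glucose against 9.47 and 9.45 without under SRC-1 siRNA, and 8.55 and 8.62 against 9.50 and 9.40 under control siRNA. The groups were well apart, with differences of -0.81 ± 0.069 and -0.87 ± 0.069 (adjusted p = 4.2e-05 and 2.92e-05). ALG13 and ALG14 form the enzyme that adds the next GlcNAc. ALG14, its membrane anchor, was higher at 0.27 ± 0.064 and 0.37 ± 0.064, and without SRC-1 siRNA glucose array 1 that siRNA's call was lost (0.22, adjusted p = 0.0588). ALG13 was not called on its brightest probe set (0.18 and 0.04), whereas 2 of its 4 dimmer ones were lower with both siRNAs, at -0.59 and -0.49, and at -0.54 and -0.56. ALG2, a mannosyltransferase, was lower at -0.29 ± 0.073 and -0.45 ± 0.073, and ALG1, which adds the innermost mannose, was at -0.14 and -0.17 and not called. The ALG2 call with SRC-1 siRNA was lost without glucose array 1 (adjusted p = 0.0587) or no glucose array 1 (0.0620) of that siRNA.

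In the ER lumen the mannosyltransferases ALG3, ALG9 and ALG12 and then the glucosyltransferases ALG6, ALG8 and ALG10 complete the oligosaccharide. ALG12 was the member of this step called lower, at -0.40 ± 0.12 and -0.46 ± 0.12. It read 5.75 and 5.94 against 6.41 and 6.07 under SRC-1 siRNA, and 5.91 and 5.81 against 6.33 and 6.31 under control siRNA. The SRC-1 siRNA call for ALG12 ended without no glucose array 1 (-0.22, adjusted p = 0.141) or glucose array 1 (-0.30, adjusted p = 0.134) of that siRNA. The control siRNA call ended without no glucose array 1 (adjusted p = 0.0563) or glucose array 2 (adjusted p = 0.0605). CRELD2, an ER stress gene, is the neighbour of ALG12 on the opposite strand, and their windows share 295 bases with the ERSE among them. CRELD2, named here after its values were seen, differed by -3.05 ± 0.072 and -2.98 ± 0.072.

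ALG6, which adds the first glucose of the oligosaccharide, rose with glucose. It read 9.15 and 9.12 with glucose against 8.57 and 8.48 without under SRC-1 siRNA, and 9.08 and 9.11 against 8.46 and 8.50 under control siRNA. The rise of 0.61 ± 0.065 with each siRNA was the largest among the 42 genes (adjusted p = 0.00013 and 0.000136). ALG8, which adds the next glucose, was called higher with SRC-1 siRNA (0.18 ± 0.062, adjusted p = 0.0453) and at -0.00 with control siRNA, and 13 of 18 alternative settings ended that call, 8 of them by leaving out any single one of the 8 arrays (adjusted p up to 0.187). ALG3 (-0.18 and -0.09), ALG9 (-0.03 and -0.06) and ALG10 (0.10 and -0.15) were not called. A dimmer probe set of ALG9 was called higher at 0.37 and 0.53, against its brighter one, and a dimmer one of ALG10 at 0.52 with SRC-1 siRNA alone.

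The oligosaccharyltransferase, which moves the finished oligosaccharide to the protein, was the largest step, with 9 measured subunits. Of these 7 were lower and 0 higher with either siRNA, where 20.0% of all genes were lower with SRC-1 siRNA and 21.6% with control siRNA, and the subunits' medians were -0.54 and -0.53. The catalytic subunit STT3A, which acts as proteins enter the ER, read 10.40 and 10.36 with glucose against 11.12 and 11.09 without under SRC-1 siRNA. Under control siRNA STT3A read 10.34 and 10.38 against 11.13 and 11.08. The replicate arrays lay close together beside that distance, and the differences were -0.73 ± 0.062 and -0.75 ± 0.062 (adjusted p = 4.22e-05 and 3.88e-05). STT3B, the alternative catalytic subunit, which acts also after entry, read 11.82 and 11.64 against 12.03 and 12.11 under SRC-1 siRNA, and 11.84 and 11.72 against 12.05 and 12.04 under control siRNA. Its differences were -0.34 (95% interval -0.53 to -0.15) and -0.27 (-0.46 to -0.08), where those of STT3A spanned -0.87 to -0.58 and -0.89 to -0.60. The intervals do not overlap, and the difference between the genes was not tested. The STT3B call with SRC-1 siRNA ended without no glucose array 2 (adjusted p = 0.0640) or glucose array 2 (0.0643), and that with control siRNA without no glucose array 1 (0.100), no glucose array 2 (0.0876) or glucose array 2 (0.136).

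OSTC, a subunit of the STT3A form, read 11.52 and 11.47 with glucose against 12.27 and 12.39 without under SRC-1 siRNA, and 11.44 and 11.52 against 12.41 and 12.41 under control siRNA. It differed by -0.84 ± 0.070 and -0.93 ± 0.070. MAGT1, an oxidoreductase subunit of the STT3B form, read 11.43 and 11.33 against 12.42 and 12.47, and 11.58 and 11.48 against 12.59 and 12.51. It was 2.09-fold lower with SRC-1 siRNA and 2.03-fold lower with control siRNA (adjusted p = 1.37e-05 and 1.65e-05), and all 3 of its probe sets were called lower with both, between -0.89 and -1.32. TUSC3, the related subunit that can stand in the place of MAGT1, read 10.09 and 10.01 against 10.11 and 10.08 under SRC-1 siRNA, and 9.97 and 10.07 against 10.16 and 10.18 under control siRNA. Its arrays overlapped between media, and it was called with neither siRNA (-0.04, interval -0.20 to 0.11, and -0.15, interval -0.31 to 0.00). A dimmer probe set of TUSC3 was called higher with SRC-1 siRNA, at 0.32. Another, nearly as bright as the one used, went the other way and was not called. Its group means were 9.82 against 9.99 with SRC-1 siRNA and 9.81 against 9.96 with control siRNA, with all glucose arrays below the others.

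Of the subunits in the gene list, DDOST, RPN1, RPN2 and DAD1 are shared by both forms of the enzyme. DDOST differed by -0.63 ± 0.066 and -0.64 ± 0.066, RPN1 by -0.54 ± 0.078 and -0.53 ± 0.078, and RPN2 by -0.29 ± 0.067 and -0.42 ± 0.067, each called lower with both siRNAs. The same held for all 3 probe sets of RPN2 and both of DDOST. DAD1 read 12.61 and 12.56 against 12.71 and 12.66, and 12.58 and 12.56 against 12.67 and 12.78. Its glucose arrays lay below the others, but the differences of -0.10 and -0.16 were not called.

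**Figure D3:**
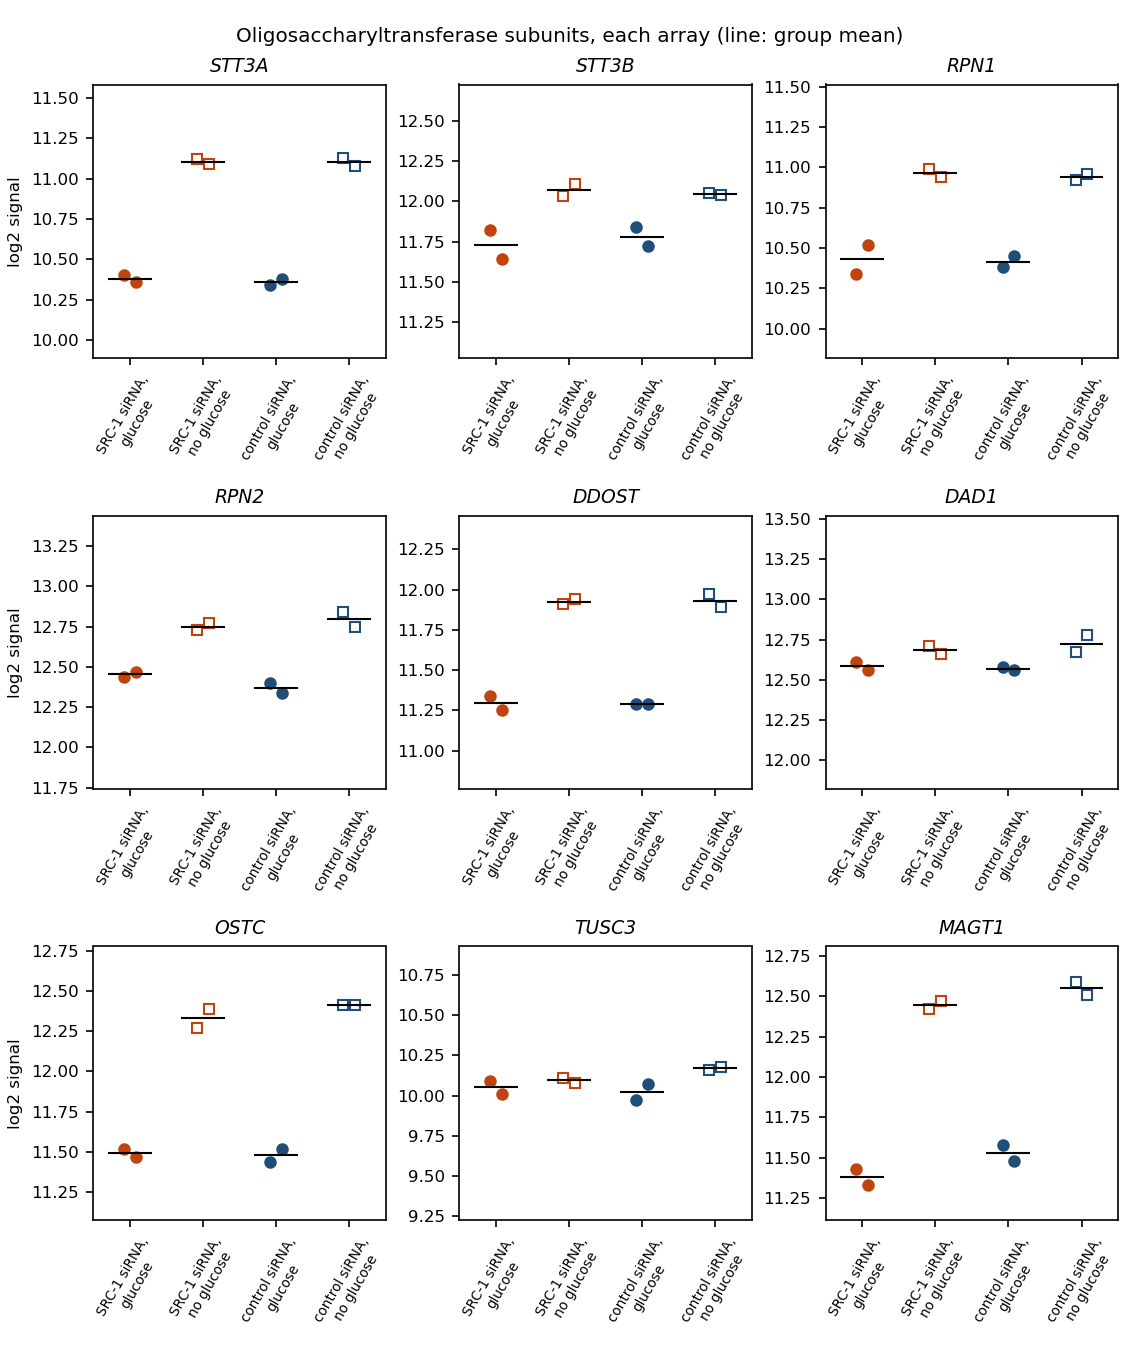
Log2 signal of the 9 oligosaccharyltransferase subunits on each array, by group, with a line at each group's mean and the same span of 1.7 log2 units on every vertical axis. Filled circles are glucose arrays and open squares arrays without glucose, and the groups part widely for MAGT1, OSTC and STT3A, less for STT3B, and overlap for TUSC3.

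After the transfer, glucosidase I (MOGS) and glucosidase II (GANAB with its partner PRKCSH) remove the glucoses, and UGGT1 and UGGT2 put 1 back on proteins that are not folded. The reglucosylating genes were among the most lowered. UGGT2 read 7.31 and 7.21 with glucose against 8.36 and 8.54 without under SRC-1 siRNA, and 7.27 and 7.45 against 8.61 and 8.61 under control siRNA. UGGT1 read 8.95 and 8.68 against 9.87 and 9.94, and 8.89 and 8.98 against 9.88 and 9.83. For both genes every glucose array lay well below every array without glucose. UGGT2 differed by -1.19 ± 0.089 and -1.25 ± 0.089, and UGGT1 by -1.09 ± 0.094 and -0.92 ± 0.094. All 5 probe sets of UGGT1 were called lower with both siRNAs, as were the 3 of UGGT2 that passed the filter, although 1 of these fell by 0.35 and 0.42.

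Among the genes that remove glucose, GANAB was called lower at -0.23 ± 0.073 and -0.22 ± 0.073 (adjusted p = 0.0318 and 0.0395), and these calls ended under 4 and 8 of 18 alternative settings. Among these were the fits without no glucose array 1, no glucose array 2 or glucose array 2 of the siRNA concerned (adjusted p up to 0.149 and 0.192), and for control siRNA also without either SRC-1 siRNA no glucose array (0.0598). Its other probe set was called at -0.48 and -0.53. MOGS (-0.16 and -0.11) and PRKCSH (-0.04 and -0.01) were not called. In all, 3 genes fell at least 2-fold with control siRNA (GMPPA, UGGT2 and MAGT1) and 4 with SRC-1 siRNA, where UGGT1 joined them, against 2.16% and 2.03% of all genes, and 0 rose that far, against 2.15% and 2.36%.

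Mannose trimming and the first Golgi steps showed small differences. MAN2A1, Golgi mannosidase II, was lower at -0.25 ± 0.064 and -0.26 ± 0.064, with calls that ended without SRC-1 siRNA no glucose array 1 (adjusted p = 0.0713) or glucose array 2 (0.0679), and without control siRNA no glucose array 2 (0.0643). MAN1B1, the ER mannosidase, was lower with control siRNA (-0.32 ± 0.074, adjusted p = 0.00718) and at -0.18 and not called with SRC-1 siRNA. MAN1A2, a Golgi mannosidase I, was higher on its brightest probe set, at 0.35 ± 0.089 and 0.45 ± 0.089. That probe set read 8.45 and 8.29 against 8.11 and 7.92 under SRC-1 siRNA, and 8.31 and 8.27 against 7.89 and 7.80 under control siRNA. Another MAN1A2 probe set above the filter was called the other way, at -0.50 and -0.80. Its remaining probe sets above the filter were not called but were also lower with glucose. Their group means were 6.35 against 6.73 and 5.03 against 5.23 with SRC-1 siRNA. With control siRNA they were 6.49 against 6.69 and 5.05 against 5.40. The mean over probe sets was -0.18 and -0.23, so that the direction of MAN1A2 is uncertain. The call with SRC-1 siRNA also ended without no glucose array 2 (adjusted p = 0.0861) or glucose array 1 (0.0803) of that siRNA. Its relative MAN1A1 had signals of 2.59 to 3.39 on its 2 probe sets, below the filter at 4.80, and neither was called. MGAT1 (-0.07 and -0.07) and MGAT2 (0.02 and -0.20), which start the branches of complex glycans, were not called.

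Called probe sets of a gene went the same way in most cases. Tested without a filter over all 41091 probe sets, 35 of the 89 were lower and 7 higher with SRC-1 siRNA, and 40 were lower and 5 higher with control siRNA. The number higher with SRC-1 siRNA was 1 without either SRC-1 siRNA glucose array 1 or its no glucose array 2. It was 4 after quantile normalization and without SRC-1 siRNA glucose array 2, its no glucose array 1 or either control siRNA no glucose array. The number higher with control siRNA was 3 without control siRNA glucose array 1 or its no glucose array 2. Over all probe sets, 10.8% were lower, 12.6% higher and 23.4% either with SRC-1 siRNA, and 11.7%, 12.4% and 24.1% with control siRNA. Of 19 genes with several probe sets above the filter, 1, MAN1A2, had probe sets called in opposite directions. That count leaves out probe sets that were not called. With these, ALG9, ALG10, ALG13, TUSC3, MGAT2 and MPDU1 also had probe sets of opposite sign with at least 1 siRNA.

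**Figure D4:**
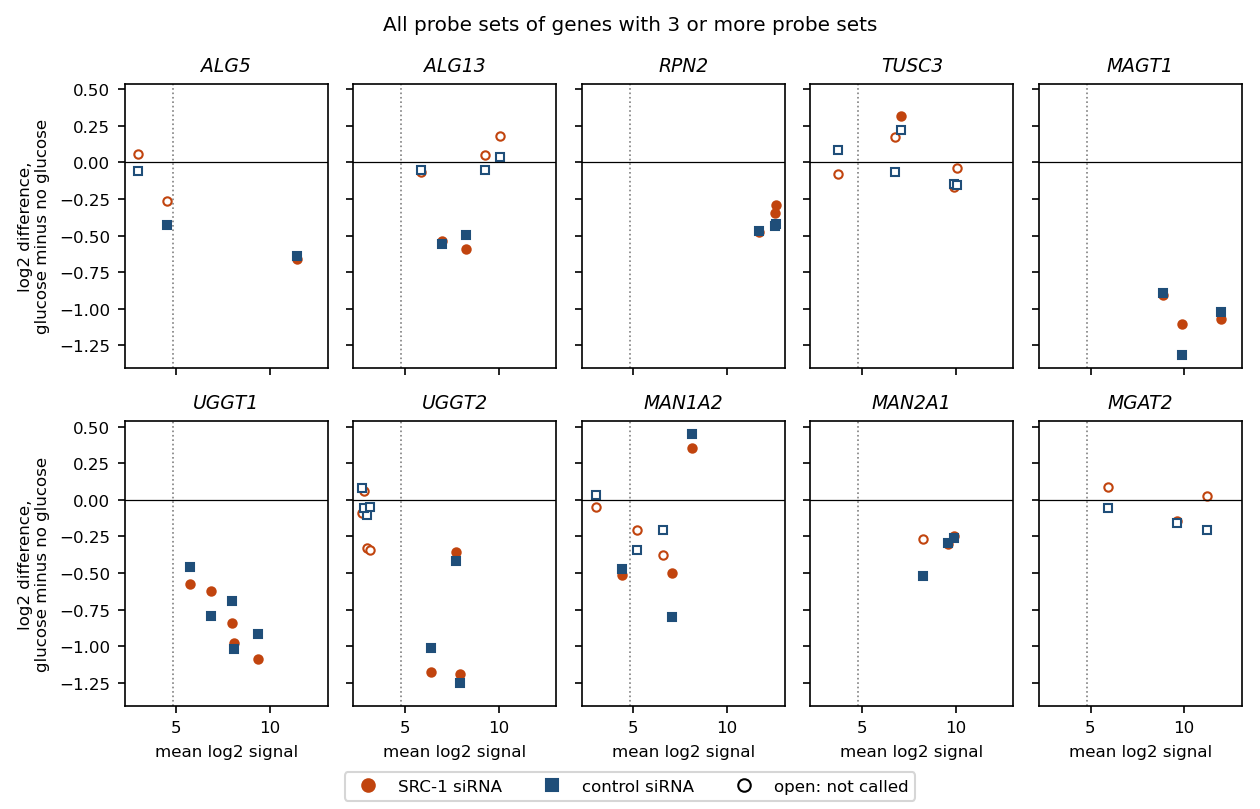
Glucose difference (vertical axis, log2) against mean log2 signal over 8 arrays (horizontal axis) for every probe set of the 10 genes with 3 or more, with SRC-1 siRNA (circles) and control siRNA (squares). Filled points are called, the dotted line is the filter at 4.80, and probe sets of UGGT1, MAGT1 and RPN2 lie on the same side of 0 while those of MAN1A2 do not.

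Other genes of the pathway, from lists of textbook membership, are given for the glucose effect averaged over both siRNAs, where 26.2% of all genes were lower, 29.5% higher and 55.7% either. Of the 42 genes above, 22 were lower and 4 higher in that average. Of the remaining transferase subunits and the lectin malectin, KRTCAP2 (-0.27 ± 0.045), MLEC (-0.29 ± 0.053) and TMEM258 (-0.24 ± 0.044) were lower, and OST4 (-0.09 ± 0.044) was not called. Of 12 genes for lectins and enzymes that follow or degrade glycoproteins, 10 were lower and 0 higher, with PDIA3 (-1.18 ± 0.044), a disulfide isomerase that works with calnexin, and EDEM1 (-1.26 ± 0.051), which marks glycoproteins for degradation, at the smallest p. ERLEC1 (-0.67 ± 0.054) and the cargo lectin LMAN2 (-0.52 ± 0.043) followed. All 4 measured genes of UDP-GlcNAc supply were lower, GFPT1 (-1.58 ± 0.056) and UAP1 (-1.08 ± 0.088) more than NAGK (-0.30 ± 0.052) and GNPNAT1 (-0.19 ± 0.049).

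Later Golgi steps and the isoprenoid chain behind dolichol were listed apart. Of 16 genes of branching and capping, 7 were lower and 5 higher, and the branching transferases MGAT4A (1.55 ± 0.059) and MGAT5 (1.02 ± 0.069) were the furthest from 0. B4GALT3, a galactosyltransferase (-0.43 ± 0.055), and SLC35A3, a transporter of UDP-GlcNAc (-0.38 ± 0.049), were lower. All 6 measured genes of the mevalonate pathway up to farnesyl diphosphate, from which dolichol is made, were higher, with a median of 0.44, among them IDI1 (1.22 ± 0.057), HMGCS1 (0.98 ± 0.12), FDPS (0.55 ± 0.050) and MVK (0.30 ± 0.060). All 8 markers of the unfolded protein response were lower, with a median of -2.01, beside a median of -0.19 for the 42 genes. They include DDIT3 (-4.38 ± 0.061), SDF2L1 (-2.52 ± 0.068), HERPUD1 (-2.52 ± 0.046) and HSPA5 (-1.73 ± 0.045). The part of this response in the lower signals of the glycosylation genes was not tested.

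Knockdown of SRC-1 left no call among these genes. With glucose, 0 of 42 were called by limma, and 2, MAN1B1 (0.19 ± 0.074) and MGAT2 (0.21 ± 0.086), had an unadjusted p below 0.05, where 0.00736% of all genes were called and 5.75% had such a p. Without glucose 0 of 42 were called and 0 had an unadjusted p below 0.05, where these shares were 0.0221% and 3.19% for all genes. Averaged over both media, 0 of 42 were called and 1 had such a p, with shares of 0.0294% and 4.96% for all genes. That gene was MAGT1, whose signal differed by -0.12 ± 0.051 (adjusted p = 0.976). In this average the 42 differences lay between -0.13 and 0.13, and the 95% intervals reached from -0.27 to 0.33. For 1 gene, MPDU1, all 4 SRC-1 siRNA arrays lay above all 4 control siRNA arrays, as for 0.449% of all genes, with 10.21, 10.27, 10.27 and 10.20 against 10.20, 10.12, 10.18 and 10.19. For 0 of 42 they lay below, as for 0.427% of all genes. The MPDU1 difference was 0.07 (interval -0.04 to 0.18) and was not called.

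The glucose effect of these genes was also compared between the siRNAs. The interaction of siRNA and glucose was called for 0 of 42 genes by limma and for 0% of all genes, with an unadjusted p below 0.05 for 0 of the 42 and for 3.42% of all genes. Its estimates lay between -0.17 and 0.24, and the widest intervals reached from -0.48 to 0.66. The 95% interval of each of the 42 estimates held 0, and with 2 arrays per group these intervals do not show that the effects were alike.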

How the data were processed

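The deposited table holds log2 signals per probe set for 8 Affymetrix arrays of A549 cells, with no missing value and a range of 1.98 to 14.69. The log base was read from the values, since neighbouring hybridization spikes lay 1.91, 1.92 and 2.14 units apart. The sources used here do not say how the authors corrected, summarized and normalized these log2 values. Biotinylated cRNA was made by the standard Affymetrix procedure, per the labels' protocols. No detection calls were used, so low signals could not be set against background and folds that end there may be compressed.

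Gene names came from the platform annotation, and 41037 of the 41091 probe sets with a single gene matched a RefSeq gene (GRCh38.p14) by Entrez identifier. Probe sets with a mean under the 40th percentile (log2 4.80) were left out, and the brightest was kept for each gene, which gave 13584 genes. All 8 arrays entered 1 limma fit (limma 3.58.1, R 4.3.3) with a mean per group, 4 residual and 4.35 prior degrees of freedom, two-sided moderated tests and Benjamini-Hochberg adjustment over all genes at 0.05. All 41091 probe sets were also fitted without a filter. A permutation test of 2 arrays against 2 cannot go below a two-sided p of 0.333, so the calls rest on the shared spread, and precision is limited by the number of arrays (median SE of a difference 0.0834).

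Every gene of the list is named, with NCOA1, and up to 4 genes with the smallest p from each further pathway list. The genes, lists and tests were chosen with earlier results of these data known. Alternatives were quantile normalization, centring, 2 other filters, the mean of probe sets, leaving out probe sets ending in _s_at or _x_at, a trended prior, array weights, a fit of the groups compared, a replicate block and leaving out each array.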

Additional observations from a re-analysis of the deposited data

How the results depend on the processing

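The number of listed genes called with glucose was 23 of 42 with SRC-1 siRNA and 25 of 42 with control siRNA. Alternatives that keep other probe sets can test another number of genes. Under the alternatives that kept all arrays it lay between 20 and 26 and between 21 and 28, and when each array was left out in turn between 18 and 22 and between 20 and 25. Averaged over both siRNAs it was 26, between 23 and 31, and between 25 and 27 without single arrays. Of the 89 probe sets, 42 and 45 were called, between 39 and 50 and between 42 and 51, and without single arrays between 28 and 42 and between 34 and 44. The counts for SRC-1 knockdown and for the interaction were 0 under all alternatives run. By direction, with SRC-1 siRNA 14 to 21 genes were lower and 2 to 7 higher, and with control siRNA 16 to 24 and 4 to 5. Of the probe sets 25 to 40 were lower and 1 to 10 higher with SRC-1 siRNA, and 31 to 46 and 3 to 6 with control siRNA. Leaving an array out leaves a group with 1 array, which is assumed to vary like the others. Without probe sets ending in _s_at or _x_at, 33 of the listed genes were tested instead of 42. Of these 33, 20 were called with SRC-1 siRNA, 21 with control siRNA and 23 averaged over both. Those are the lowest counts among the alternatives that kept all arrays, and they stem from fewer genes tested.

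Of 48 calls of single genes with glucose, 33 held under all alternatives, 14 were lost under at least 1 and 1, MAN1A2 with control siRNA, was reversed under 1 without being lost otherwise, and of 36 effects not called 14 were called under at least 1. A call was judged only under the alternatives that tested its gene. GMPPA and DPAGT1, for example, have 1 probe set each, ending in _s_at, and were not tested without such probe sets. Among effects called in the main fit or in the alternative, directions changed in 4 genes. Sign changes of effects called in neither were not counted. With the mean of probe sets MAN1A2 turned to -0.183 with SRC-1 siRNA and -0.225 with control siRNA, ALG13 to -0.192 and -0.224, and ALG9, with control siRNA, to 0.233. Without probe sets ending in _s_at or _x_at, ALG9 turned to 0.373 and 0.526, and TUSC3, with SRC-1 siRNA, to 0.320. These settings use other probe sets of the same gene, and which probe set reads the gene better was not tested.

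Arrays with the same replicate number did not deviate together (correlations of -0.1 to 0.12 between groups). With the replicate block 22 genes were called with SRC-1 siRNA, 26 with control siRNA and 25 averaged, 39 and 42 probe sets were called, and 0 genes were called for knockdown or interaction. The block ended the ALG8 call with SRC-1 siRNA and added MGAT2 with control siRNA.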
